A study of Mus musculus with 2 samples.

Results

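The cyclins, the cyclin-dependent kinases (CDKs) and the CDK inhibitors were described in primary hepatocytes of control and Drp1LiKO mice. Members were the genes named on the array as cyclins A to K with a number, as numbered CDKs, as Cdkn1 or Cdkn2 inhibitors or as Cdkn3. Cdkn1a and Ccng1 were left out by this rule. It found 36 genes, read by 79 probes, among 37074 gene names on the array. Of these members, 32 were well above background at 1 or more probes.

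A cyclin binds a CDK and switches on its kinase activity, and the cell cycle advances as one cyclin replaces the next. D-type cyclins with Cdk4 or Cdk6 start the exit from G1, E-type and A-type cyclins with Cdk2 drive DNA synthesis, and A-type and B-type cyclins with Cdk1 drive mitosis. INK4 and CIP/KIP proteins block these kinases, and other CDKs act in transcription, splicing or neurons. Adult hepatocytes rest outside the cycle and can enter it again after loss of liver tissue or in culture.

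Both mouse groups were on a C57BL/6 background and untreated. Control mice carried Drp1 flox/flox, which the labels call wild type, and Drp1LiKO mice carried Alb-Cre Tg/+ with Drp1 flox/flox, so that the albumin promoter drove Cre in hepatocytes and removed Drp1, the GTPase that divides mitochondria. The age of these mice and the number of mice per array were not given in the sources used here. Cells were released with collagenase, pelleted at low speed, grown on collagen and harvested after 24 h, and RNA of each genotype was hybridized to 1 array on the same slide. With 1 array per genotype no test was made, no p-value is given, and every difference describes these 2 arrays.

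Values are processed signals, a background-corrected brightness without unit. A log2 ratio is the Drp1LiKO signal minus the control signal on the log2 scale, each after subtraction of the 75th percentile of its array, at 313 on the control and 356 on the Drp1LiKO array. The Z score sets this ratio against all 30275 probes detected, with an SD of 0.65. A Z score of -2 stood at a log2 ratio of -1.31, or 2.48-fold lower. A gene was read by its brightest probe, and signals of different probes are not compared. Each member probe had 1 spot per array. Spots of replicated probes at like signal gave the SD expected of a ratio from spot noise alone, which ranged from 0.080 to 0.30 over the members. This noise leaves out the spread between mice and cultures, which was not measured.

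The targeted gene, Dnm1l, gave a signal of 2602 on the control and 1217 on the Drp1LiKO array, a log2 ratio of -1.28. Its Z score of -1.95 was just short of -2. Alb, the defining hepatocyte marker, had signals of 219613 and 266703. Of 14 hepatocyte markers on the array, all 14 were detected, 9 were higher and 5 lower in Drp1LiKO cells, with a median log2 ratio of 0.26. Pck1, 1 of the 9 higher, was above background in Drp1LiKO cells alone, so its ratio is a bound. Of all genes, 55.5% were lower and 3.5% were higher past a Z score of 2. Ahsg, a secreted liver protein, and Cyp3a11, a drug-metabolizing enzyme, were higher past a Z score of 2, at log2 ratios of 1.83 and 2.03. The summed signal of the list, most of it from Alb and Serpina1a, was 671160 in control and 775791 in Drp1LiKO cells, before scaling of the arrays.

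The members that differed most were the cyclins and partners of S phase and mitosis. Ccna2, Ccnb1, Ccnb2 and Cdkn3 were lower in Drp1LiKO cells past the Z score of -2, 2.67-fold to 4.99-fold, and Cdk1 stood just short of it. These were 4 of 32 detected members (12.5%), beside 2.81% of all 20165 detected genes. No member was higher past a Z score of 2, beside 3.5% of all genes. Over all ratios, 21 members (65.6%) were lower and 11 higher, beside 55.5% of all genes lower. Their median log2 ratio was -0.14, against -0.05 for all genes. Ccna2, Ccnb1, Ccnb2 and Cdk1 also stand in the study's own table of mitotic genes drawn from these arrays, so their direction here is no independent evidence. Each array read a whole culture, in which fewer cycling cells and less RNA per cell cannot be told apart.

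**Figure D1:**
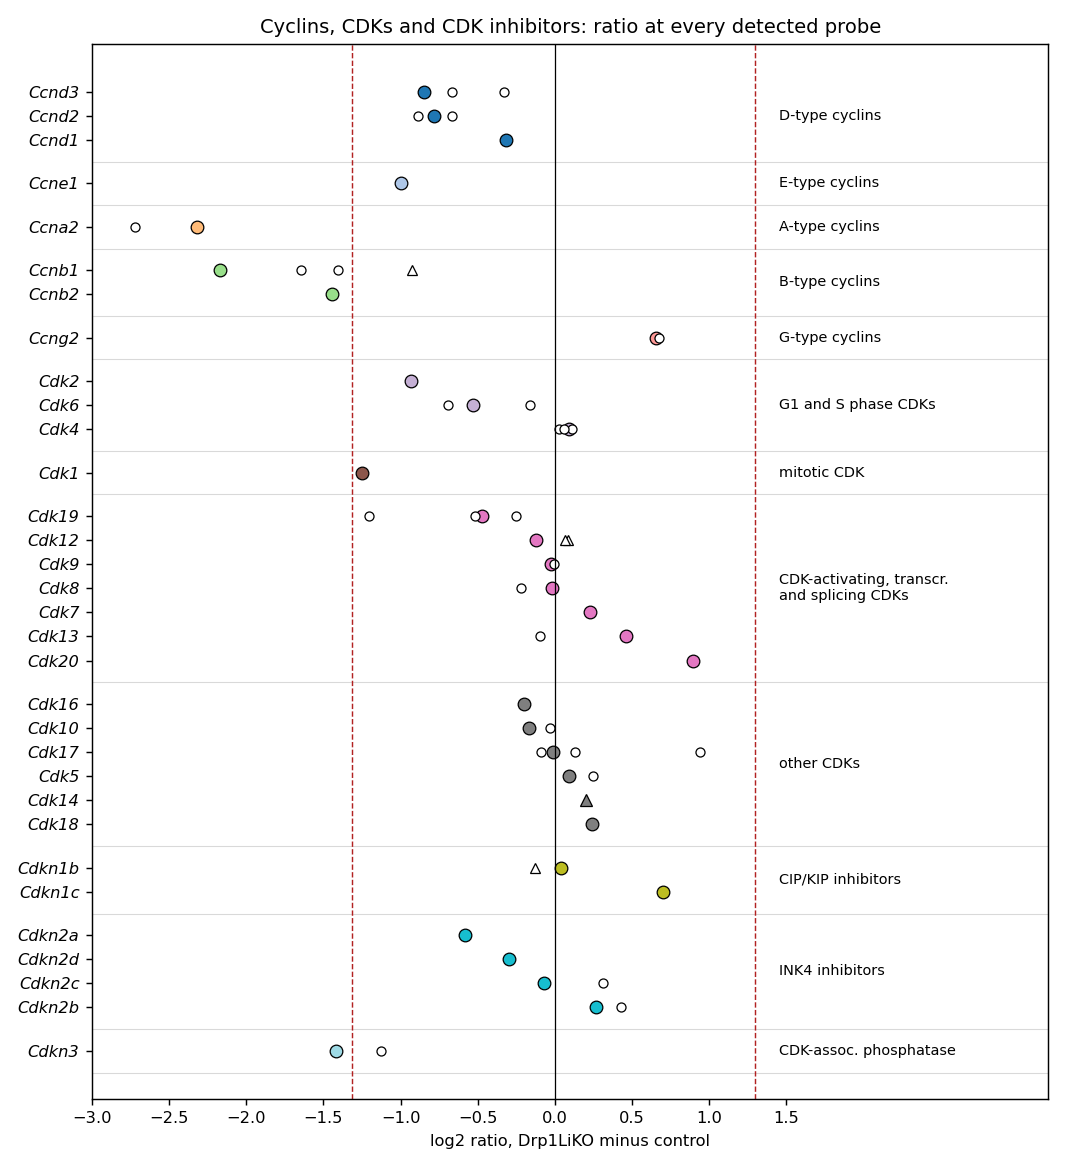
Log2 ratio (Drp1LiKO minus control) at every detected probe of the 32 detected members, grouped by role. Large filled marks are the brightest probe of a gene, small open marks its other probes, triangles are probes not well above background on 1 array, whose ratio is a bound, and dashed lines mark Z scores of -2 and 2. Ccna2, Ccnb1, Ccnb2 and Cdkn3 lie left of the line at -1.31, and no brightest probe lies right of the other line.

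Promoter sequences are shown for the members that were lower past the threshold or next to it, since these genes are known to be switched on together late in the cycle. The stretches are the 250 bases before the annotated start in RefSeq, on build GRCm38.p6, written from 5′ to 3′ on the strand of the gene. Capitals mark matches, on either strand, to the cell cycle homology region (CHR, TTTGAA), bound by the MuvB core of the DREAM complex, to the CCAAT box (CCAAT), bound by NF-Y, and to E2F motifs (TTTCCCGC, TTTCGCGC, TTTGCCGC or TTTGGCGC). A match on the other strand reads TTCAAA or ATTGG. Ccna2 had no entry in the table of promoters used.

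Ccnb1, chr13:100786487-100786736, minus strand: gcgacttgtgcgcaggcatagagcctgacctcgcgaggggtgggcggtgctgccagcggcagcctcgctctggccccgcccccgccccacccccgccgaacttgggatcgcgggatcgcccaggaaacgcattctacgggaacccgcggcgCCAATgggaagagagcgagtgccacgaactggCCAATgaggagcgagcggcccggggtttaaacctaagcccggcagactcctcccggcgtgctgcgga

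Ccnb2, chr9:70421555-70421804, minus strand: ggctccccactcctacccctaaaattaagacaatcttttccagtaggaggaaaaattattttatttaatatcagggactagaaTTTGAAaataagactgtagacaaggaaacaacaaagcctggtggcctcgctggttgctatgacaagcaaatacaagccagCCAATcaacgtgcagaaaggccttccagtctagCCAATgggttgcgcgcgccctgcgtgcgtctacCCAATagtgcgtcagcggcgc

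Cdkn3, chr14:46760291-46760540, plus strand: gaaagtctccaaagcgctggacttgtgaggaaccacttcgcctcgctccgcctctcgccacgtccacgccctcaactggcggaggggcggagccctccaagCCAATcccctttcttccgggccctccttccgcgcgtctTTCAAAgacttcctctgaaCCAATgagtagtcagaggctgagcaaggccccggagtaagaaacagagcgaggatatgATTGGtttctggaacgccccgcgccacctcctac

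Cdk1, chr10:69352913-69353162, minus strand: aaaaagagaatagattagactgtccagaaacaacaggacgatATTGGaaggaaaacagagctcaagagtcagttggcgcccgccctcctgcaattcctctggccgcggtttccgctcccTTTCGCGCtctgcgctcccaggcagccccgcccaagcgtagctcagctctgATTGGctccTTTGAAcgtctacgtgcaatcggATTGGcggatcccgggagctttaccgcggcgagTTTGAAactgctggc

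All 4 stretches held more than 1 CCAAT box. In Ccnb1 they began 99 and 67 bases before the start, 32 bases apart. In Ccnb2 they began 87, 54 and 21 bases before it, 33 bases apart. Cdk1 held boxes at 80 and 48 bases, also 32 bases apart, and a further one at 208 bases. In Cdkn3 the boxes began 149, 92 and 34 bases before the start, 57 and 58 bases apart. Cdk10, a member with a log2 ratio of -0.17, also held boxes 59 bases apart. The CHR letters stood in Ccnb2 at 167 bases before the start, in Cdkn3 at 111 bases, and in Cdk1 at 71 and 15 bases. Beyond the stretches shown, Ccnb2 held a further CHR match 4 bases after the start, and Cdkn3 a further CCAAT box 9 bases after it. Ccnb1 had no match in its window to TTTGAA, the only CHR letters searched. Cdk1 alone of the 4 had an E2F match, at 131 bases.

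Windows of 250 bases before to 50 bases after the start were searched for the 28 members in the table. Ccnd1, Ccnd2, Ccne2, Cdk5, Cdk17, Cdk19 and Cdkn1c had no entry, as Ccna2. CCAAT boxes stood in 15 of 28 members (53.6%) and in 41.1% of all 27025 genes of the table, or in 39.3% and 32.7% within 200 bases before the start. They were in 3 of the 3 members lower past the threshold that had an entry, and in 11 of the 22 other detected members. For CHR letters these counts were 2 of 3 and 3 of 22, and for E2F motifs 0 of 3 and 3 of 22. CHR letters stood in 5 members (17.9%), namely Ccnb2, Cdk1, Cdk16, Cdkn2b and Cdkn3, and in 20.2% of all genes, against 17.9% and 14.4% in the shorter window, so the order of these shares depended on the window. E2F motifs stood in 3 members, Cdk1, Cdk2 and Cdkn2a, and in 2.6% of all genes. Both a CHR and a CCAAT box were found in Ccnb2, Cdk1, Cdk16 and Cdkn3, and in 7.97% of all genes. Of these, Cdk16 had a log2 ratio near 0 (-0.20), so that the letters were also found in a member that differed little. No match of 1 motif overlapped a match of another. A match describes letters in the window, and binding was not measured.

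**Figure D2:**
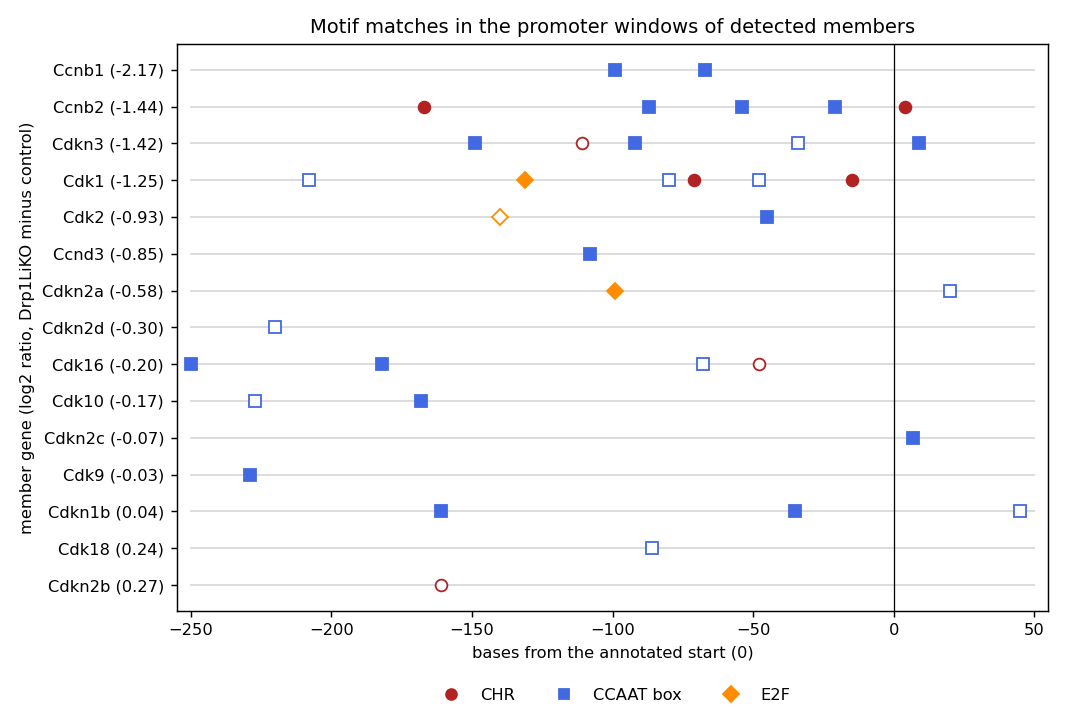
Positions of CHR (circles), CCAAT box (squares) and E2F (diamonds) matches in the promoter windows of the detected members that had any, in bases from the annotated start at 0. Filled marks are on the strand of the gene and open marks on the other strand, the number beside a gene is its log2 ratio, and 2 windows of Cdkn2a share a line. Ccnb1, Ccnb2, Cdkn3 and Cdk1, in the first 4 lines, each show 2 or more squares before the start.

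Among the D-type cyclins, which sense growth factors in G1, all 3 genes were detected and lower, none past the threshold. Ccnd1, the D-type cyclin known to mark cycle entry of hepatocytes, gave a signal of 3126 on the control and 2853 on the Drp1LiKO array, a log2 ratio of -0.31. Ccnd2 had 16757 and 11056 at its brightest probe, a log2 ratio of -0.78, and its 3 probes lay between -0.89 and -0.67. Ccnd3 had 10780 and 6802, a log2 ratio of -0.85, and its 3 probes lay between -0.85 and -0.33. The probes of both genes thus all pointed one way, and each change at the brightest probe was over 9 times the spot noise, at a ratio over noise of 9.77 and 10.6.

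Ccne1, the cyclin that activates Cdk2 at the start of S phase, gave a signal of 8124 on the control and 4612 on the Drp1LiKO array, 2.00-fold lower (Z score -1.52). It stood outside the threshold, and 4.59% of all detected genes had a lower ratio. The probe of Ccne2, the other E-type cyclin, was not well above background on either array.

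Ccna2, the A-type cyclin of dividing body cells, needed for S phase and entry into mitosis, had the lowest ratio of all members. Its brightest probe (mm9 chromosome 3, 36464929 to 36464988, minus strand) gave a signal of 1203 on the control and 273 on the Drp1LiKO array, 4.99-fold lower (log2 ratio -2.32, Z score -3.54). Its other probe, from 36463978 to 36464037, gave 773 and 133, a log2 ratio of -2.72. Both probes were thus far lower in Drp1LiKO cells, and only 0.888% of all detected genes had a ratio below that of the brightest. Ccna1, the A-type cyclin known from the germ line, was not well above background at either of its 2 probes.

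The B-type cyclins activate Cdk1 for mitosis, and both detected genes were lower past the threshold. Ccnb1 was read by 4 probes on chromosome 13 of mm9. The brightest (101548722 to 101548781) gave a signal of 478 on the control and 120 on the Drp1LiKO array, 4.50-fold lower (log2 ratio -2.17, Z score -3.32). A probe from 101551224 to 101551283 gave 94.0 and 34.1, a log2 ratio of -1.65. A probe from 101553449 to 101553508 gave 79.6 and 34.1, a log2 ratio of -1.41. All 3 probes were past the threshold on their own. The remaining probe, from 101548688 to 101548747, had 25.1 in control and was not well above background in Drp1LiKO cells, at least 1.90-fold lower.

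Ccnb2 was read by 1 probe (mm9 chromosome 9, 70255671 to 70255730). Its signal was 876 in control and 366 in Drp1LiKO cells, 2.72-fold lower (log2 ratio -1.44, Z score -2.20). The spot noise at this signal was 0.11, so the difference was far above it, but a single probe carried it. Ccnb3, a B-type cyclin known from meiosis, was not well above background at its probe.

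Ccng2, an unconventional cyclin linked to growth arrest, was the only detected cyclin of the rule that was higher. Its brightest probe gave a signal of 642 on the control and 1149 on the Drp1LiKO array, 1.58-fold higher (log2 ratio 0.66), and its other probe gave a log2 ratio of 0.68. Of the 8 cyclins detected, 7 were lower, with a median log2 ratio of -0.92 over all 8. The 17 CDKs detected had a median of -0.02, with 10 lower and 7 higher, which turned to 7 lower and 10 higher with spike-in scaling, 7 and 9 in the deposited normalized values and 8 and 9 with the median of probes. The 7 inhibitor genes, Cdkn3 included, had a median of -0.07, with 4 lower and 3 higher. Of 13 detected genes listed as cyclins outside the rule, 4 were lower and 9 higher, beside 55.5% of all genes lower. Ccnj, 1 of the 9 higher, was above background in Drp1LiKO cells alone. Ccnf, also outside the rule but listed among genes that degrade cyclins, was lower at a log2 ratio of -0.82.

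**Figure D3:**
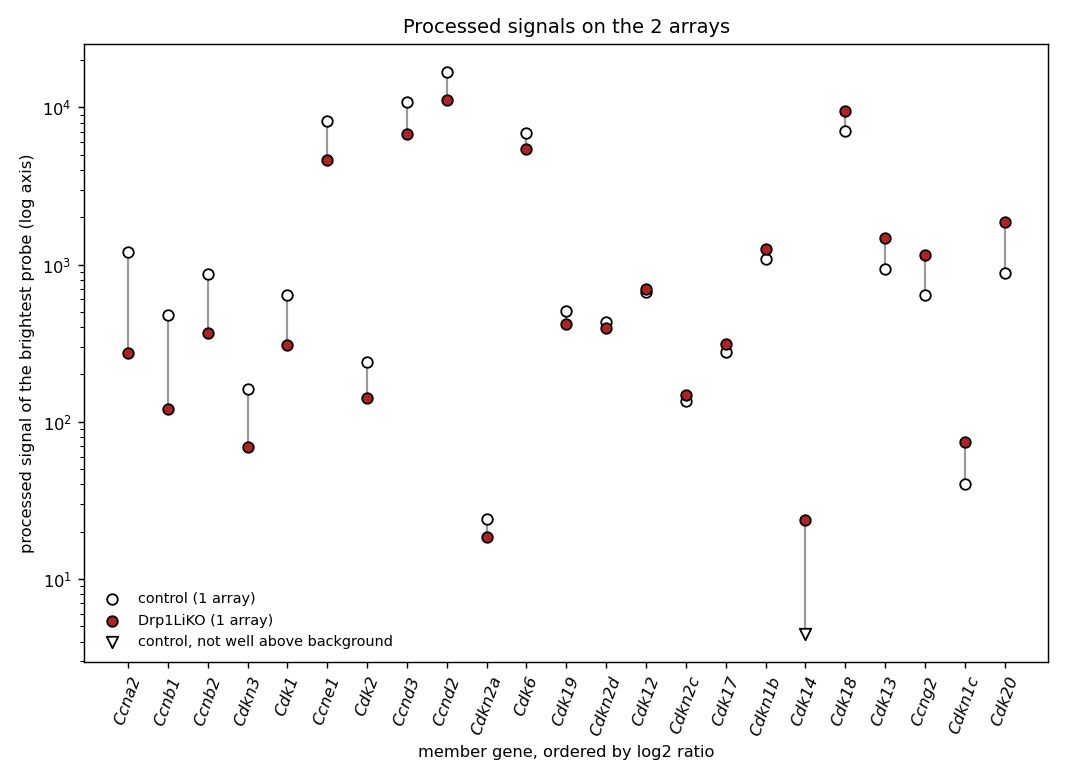
Processed signal of the brightest probe (log axis) on the control array (open) and the Drp1LiKO array (filled) for 23 members, ordered by log2 ratio. These are the members past the threshold, those whose probes differ in sign and those with the largest change of each role, and signals are shown before scaling, so a pair at the same height has a ratio slightly below 0. Ccna2 spans 1203 to 273 and Ccnb1 478 to 120, whereas the marks of Cdk12, Cdk17 and Cdkn2c nearly touch.

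Cdk1, the kinase of mitosis, was read by 1 probe on chromosome 10 of mm9, whose listed ends at 68805423 and 68807832 span 2410 bases and so cross an intron. Its signal was 642 in control and 306 in Drp1LiKO cells, 2.38-fold lower (log2 ratio -1.25). With a Z score of -1.91 it was the first member outside the threshold, and Cdkn3, at -2.16, the last inside it.

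Cdk2, the partner of E-type and A-type cyclins, gave a signal of 239 on the control and 142 on the Drp1LiKO array, a log2 ratio of -0.93. Cdk6, a partner of D-type cyclins, had 6908 and 5424 at its brightest probe, a log2 ratio of -0.53, and its 3 probes lay between -0.69 and -0.16. Both were lower within the threshold. Cdk4, the other partner of D-type cyclins, had 12703 and 15361, a log2 ratio of 0.09 close to its spot noise of 0.080. Its 4 probes lay between 0.03 and 0.11, so the 4 readings were nearly alike. Set beside their kinases, Ccna2 had a lower ratio than both Cdk1 and Cdk2, and Ccnb1 and Ccnb2 lower ratios than Cdk1. The 3 D-type cyclins all had lower ratios than Cdk4, whereas Ccnd1 stood above Cdk6 and Ccnd2 and Ccnd3 below it. The ratios of Ccne1 and Cdk2 were within 0.1 of each other.

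The CDKs of transcription and splicing and the CDK-activating kinases stayed within the threshold, 4 lower and 3 higher, with a median log2 ratio of -0.02. Cdk20, a kinase reported to activate CDKs, had the highest ratio of all members, with a signal of 879 on the control and 1858 on the Drp1LiKO array, 1.86-fold higher (log2 ratio 0.90, Z score 1.39). Cdk7, the catalytic part of the CDK-activating kinase and of TFIIH, had a log2 ratio of 0.23. Cdk9, the kinase of P-TEFb that releases paused RNA polymerase II, and Cdk8 of the Mediator complex had ratios of -0.03 and -0.02. At their brightest probes Cdk9 and Cdk8 were thus read at nearly the same scaled signal on both arrays. The other detected probe of Cdk8 gave -0.22, and the ratio of Cdk7 was 2.16 times its spot noise.

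Cdk19, the close relative of Cdk8 in Mediator, gave a signal of 510 on the control and 416 on the Drp1LiKO array, a log2 ratio of -0.47. Its 4 probes were all lower, but ranged from -1.20 to -0.25. Cdk13, which phosphorylates RNA polymerase II, had 939 and 1471 at its brightest probe, a log2 ratio of 0.46, whereas its other probe gave 167 and 178, a ratio of -0.09. Its probes therefore differed in sign. Cdk12, the relative of Cdk13, had 672 and 702, a log2 ratio of -0.12 after scaling. A pair of its other probes, above background in Drp1LiKO cells alone, gave at least 1.06-fold and 1.05-fold higher.

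The other CDKs lay between log2 ratios of -0.20 and 0.24. Cdk18 had the largest of these, with 7038 in control and 9424 in Drp1LiKO cells, a log2 ratio of 0.24. Cdk16 stood lowest at -0.20, Cdk10 at -0.17 and Cdk5, the kinase of postmitotic neurons, at 0.09. Cdk17 had 276 and 311, a log2 ratio of -0.01, and its 4 probes ranged from -0.09 to 0.94. Cdk14 was above background at 1 of 6 probes and in Drp1LiKO cells alone, with a signal of 23.8, at least 1.15-fold higher. Neither probe of Cdk15 was well above background.

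Among the CIP/KIP inhibitors, Cdkn1b, which encodes p27 and holds resting cells out of the cycle, gave a signal of 1080 on the control and 1261 on the Drp1LiKO array, a log2 ratio of 0.04. Its other probe was above background in Drp1LiKO cells alone, at 18.9, and gave no fold. Cdkn1c, an imprinted gene that encodes p57, had 40.5 and 74.6, 1.62-fold higher (log2 ratio 0.70), at a spot noise of 0.26. Cdkn1c was thus higher by 2.72 times its noise, and Cdkn1b by less than its noise.

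The INK4 inhibitors, which block Cdk4 and Cdk6, lay between -0.58 and 0.27. Cdkn2a, known for p16 and Arf and for senescence, gave a signal of 24.2 on the control and 18.4 on the Drp1LiKO array, a log2 ratio of -0.58 under 2 times its noise of 0.30, and its other probe was not detected. Cdkn2b, a target of TGF-β signaling, had 2336 and 3189 at its brightest probe, a log2 ratio of 0.27, and 0.43 at its other probe. Cdkn2d had 429 and 396, a log2 ratio of -0.30. Cdkn2c had 136 and 147, a log2 ratio of -0.07, and 0.31 at its other probe. No INK4 gene came near the threshold, and the brightest probes pointed both ways.

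Cdkn3, a phosphatase that acts on CDKs and is itself known to peak in mitosis, was the only Cdkn member past the threshold. Its brightest probe, whose listed ends on mm9 chromosome 14 were 47389608 and 47391131, gave a signal of 162 on the control and 68.9 on the Drp1LiKO array, 2.67-fold lower (log2 ratio -1.42, Z score -2.16). A further probe, from 47386895 to 47386954, gave 55.5 and 28.8, a log2 ratio of -1.13, just short of the threshold. The remaining 2 probes, designed to other transcripts, were not detected on either array.

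**Figure D4:**
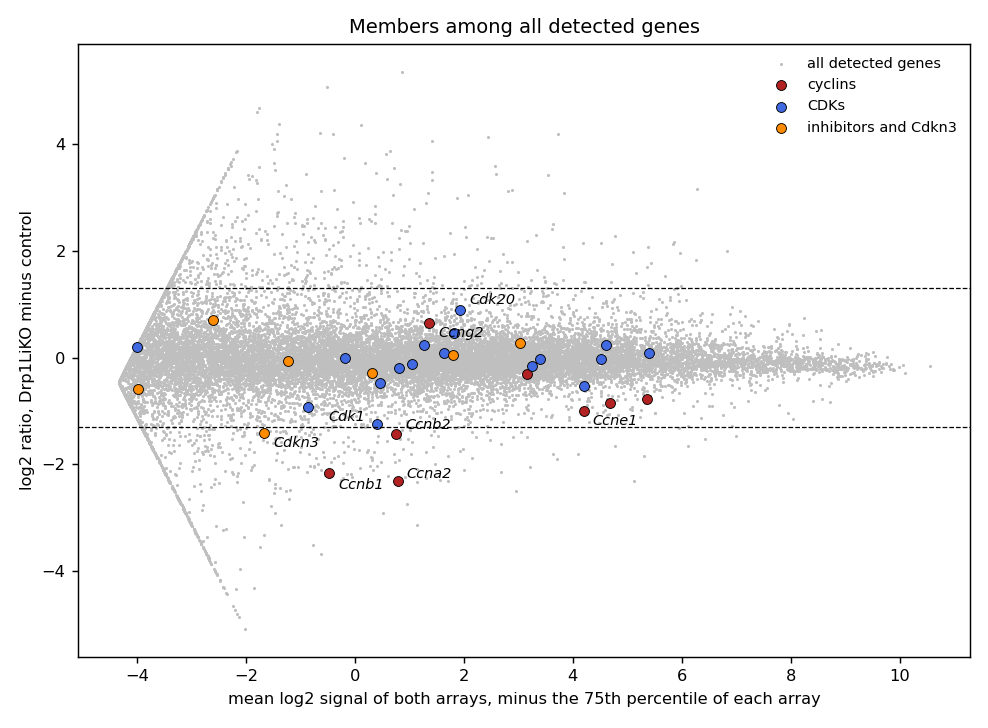
Log2 ratio (Drp1LiKO minus control) of all 20165 detected genes against their mean scaled log2 signal on both arrays, with cyclins, CDKs and the Cdkn genes in color. Dashed lines mark Z scores of -2 and 2, and the straight edges at the left are probes whose dimmer signal was raised to the lowest signal above background. Ccna2 and Ccnb1 lie apart from the other members at log2 ratios of -2.32 and -2.17, whereas most CDKs lie within the grey band.

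A list of 20 genes held the E2F family, the RB family and the DREAM complex, which control transcription of cyclins. Past the threshold, 4 were lower, beside 2.81% of all genes, and none higher, beside 3.5%. In all, 18 were lower, beside 55.5% of all genes, with a median log2 ratio of -0.58 over the list. E2f7, an atypical repressor E2F that is itself made in S phase, gave a signal of 343 on the control and 61.5 on the Drp1LiKO array, the lowest ratio of the list at -2.66. Mybl2, the B-Myb partner of MuvB, had 1411 and 378, a log2 ratio of -2.08. Foxm1, the activator of mitotic genes, had 837 and 233, a log2 ratio of -2.03. E2f8, the relative of E2f7, had 388 and 128, a log2 ratio of -1.78. All 4 ratios were below that of Ccnb2, and E2f6 stood highest in the list at 0.02.

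Of 19 genes that degrade cyclins and inhibitors, 3 were lower past the threshold, beside 2.81% of all genes. In all, 15 were lower, beside 55.5% of all genes, with a median of -0.14 over the list. Cdc20, the activator of the anaphase-promoting complex, gave a signal of 1693 on the control and 402 on the Drp1LiKO array, a log2 ratio of -2.26. Ube2c, its ubiquitin-conjugating enzyme, had 1287 and 309, a log2 ratio of -2.24. Fbxo5, its inhibitor, had 760 and 229, a log2 ratio of -1.91. Cdc20, Ube2c and Fbxo5 also stand in the study's own table of mitotic genes drawn from these arrays. Their direction here is thus no independent evidence. The highest of the list was Fbxw7, the receptor for cyclin E, at 0.13. Of 14 CDK phosphatases, kinases and subunits, 13 were detected, and Cdc25c, the phosphatase that activates Cdk1, was the only one past the threshold, with 70.7 and 27.4 and a log2 ratio of -1.55. Cdk2ap2 stood highest there at 0.26, and the median was -0.32, with 11 of the 13 lower. The same shares of all genes apply to this list.

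Among 13 detected genes listed as cyclins outside the name rule, a list without Ccnf, ratios ran from Ccnyl1 at -0.55 to Ccnjl at 0.61. Their median was 0.11, and none was past the threshold. The same held for 11 detected CDK-like kinases and Cdk5 activators, from Cdk5r2 at -0.20 to Cdk5rap1 at 0.41, with a median of -0.04. Among 17 growth factor and growth arrest genes, 12 were lower and 5 higher, and Areg, a ligand of the EGF receptor, was the only one past the threshold. Mycn, counted as lower, was not well above background in control and gave no direction. Of all genes, 55.5% were lower, 2.81% were lower past the threshold and 3.5% higher past it. Areg gave a signal of 563 on the control and 2474 on the Drp1LiKO array, a log2 ratio of 1.95, whereas Tgfb1, a growth inhibitor of hepatocytes, was lowest at -0.67.

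Markers of other liver cells moved with the genotype on the same arrays. Of all genes, 55.5% were lower in Drp1LiKO cells and 3.5% were higher past the threshold. Of 16 Kupffer cell and macrophage markers, 15 were detected, all 15 higher in Drp1LiKO cells and 13 past the threshold. Their median log2 ratio was 2.53, and their summed signal before scaling was 4898 in control and 22697 in Drp1LiKO cells. Of the 15, 4 (Clec4f, Vsig4, Fcgr1 and Laptm5) were above background in Drp1LiKO cells alone. Such markers were kept only through the Drp1LiKO array, so their ratios are bounds and add no support to a direction. Of 12 endothelial markers, 11 were detected and higher, 7 past the threshold, with a median of 1.66 and sums of 4318 and 9469. Of the 11, 3 (Lyve1, Tie1 and Tek) were above background in Drp1LiKO cells alone. Of 10 stellate cell markers, 9 were detected and 8 higher, 3 past the threshold, with a median of 1.04. Of the 9, 5 (Des, Pdgfrb, Col3a1, Colec11 and Rgs5) were above background in Drp1LiKO cells alone. Pdgfrb and Col3a1 were among the 3 past the threshold, and Des, counted as lower, gave no direction. The stellate sums of 21851 and 29232 were mostly Acta2, at a log2 ratio of 0.02. Dcn, above background on both arrays, stood at 4.06. Of 6 cholangiocyte markers, 4 were detected, 2 higher and 2 lower, with sums of 29379 and 24885. Krt7, 1 of the 2 higher, was above background in Drp1LiKO cells alone. Of 6 neutrophil markers, 2 were detected and higher, 1 of them past the threshold, with sums of 16584 and 21290 that were mostly Csf3r, at a log2 ratio of 0.17. Ly6g, the marker past the threshold, was above background in Drp1LiKO cells alone. Timd4, Vwf, Lrat, Epcam, Cftr, S100a8, S100a9, Mpo and Retnlg were not well above background on either array. For T and NK cells 2 of 8 markers were detected, both lower and neither past the threshold, with sums of 1329 and 1101. For B cells 2 of 5 were detected, with sums of 31.4 and 38.7. Pax5 was lower there at -0.52, and Ms4a1, not well above background in control, gave no direction. The macrophage and endothelial markers read above background on both arrays thus all stood higher on the Drp1LiKO array. Their part in the lower ratios of the mitotic cyclins was not tested.

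**Figure D5:**
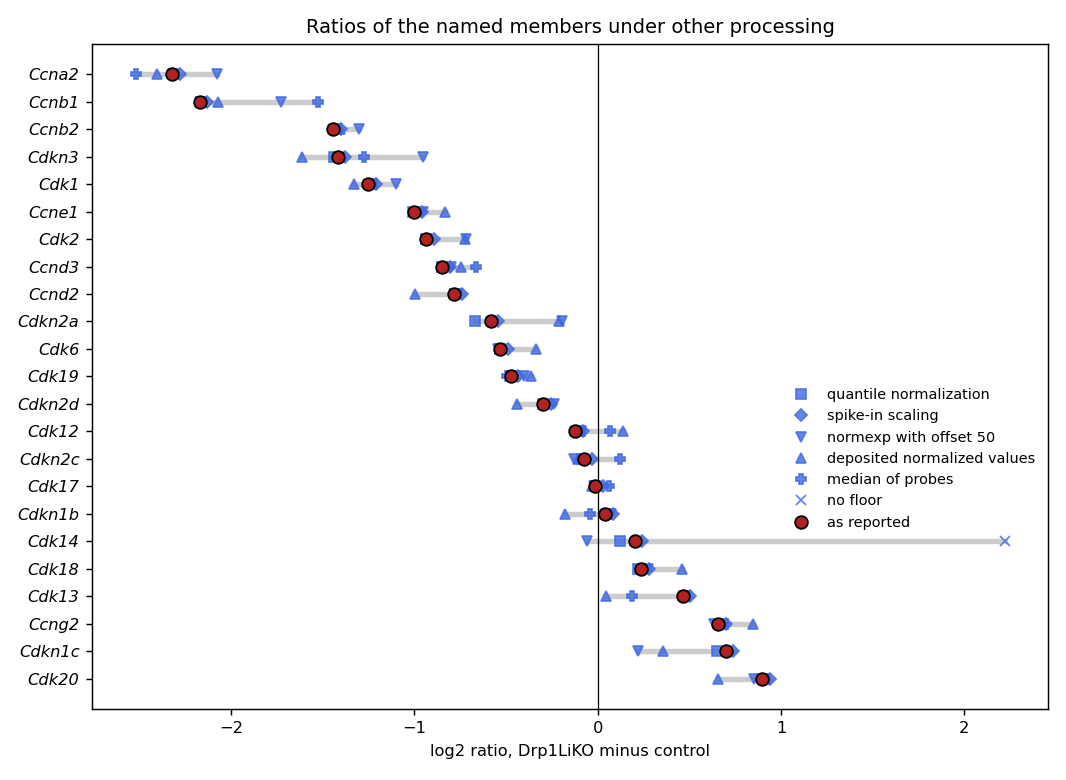
Log2 ratio (Drp1LiKO minus control) of 23 members as reported (filled circles) and under 6 other ways of processing (smaller marks), with grey bars from the lowest to the highest of all those run. Ccna2 stays between -2.52 and -2.08 and Ccnb1 between -2.17 and -1.53, whereas Cdk14, dim in control, reaches 2.22 without a floor.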

How the data were processed

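RNA of control and Drp1LiKO primary hepatocytes was read on 1 Agilent mouse array of 60-base probes per genotype. The authors deposited the scanner output, in which the intensity of each spot had been background-subtracted and corrected for trends, and a table of normalized intensities made by a method not given in the sources used here. The submitters' processing notes name Agilent Feature Extraction 9.5.1.1, and the file headers give 10.7.1.1. From the deposited intensities, log2 signals were averaged per probe without outlier and control spots, less the 75th percentile of that array. Probes had to be well above background on either array, and dimmer signals were raised to the lowest signal above background, so that their ratios are bounds. The Z score was taken over all probes kept, since the study names a Z score of 2. With arrays the number of samples limits the precision.

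The members, roles, gene lists and motifs were chosen with earlier results of these data known. Signals are given for members past the threshold at any detected probe, those whose probes differ in sign and the 2 of each role with the largest change, and for each list its members past the threshold and its lowest and highest. Values of other members were added for completeness. Spot noise was the median SD of the 5 probes nearest in signal among 288 probes with 8 or more spots, spike-ins included, combined over both arrays. Gene names and mm9 positions are those of the array design. Exon and UTR annotation of mm9 was not used here. Motifs were searched as letters in promoter sequences of RefSeq.

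Alternatives were quantile normalization, scaling to 7 spike-in probes, normexp with an offset of 50, the deposited normalized intensities, 2 other filters, no floor, outlier spots kept, the median over the probes of a gene, a robust Z score, a Z score in 20 bins of signal, a 2-fold rule, and a promoter window of 200 bases. The steps were tested on simulated data. Python 3.11.15, numpy 2.4.6, pandas 2.3.3, matplotlib 3.10.9, R 4.3.3 and limma 3.58.1 were used.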

Additional observations from a re-analysis of the deposited data

How the results depend on the processing

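The count of 4 members lower past the threshold lay between 3 and 6 under quantile normalization, spike-in scaling, normexp, the deposited values, either other filter, outlier spots kept, the median of probes and a 2-fold rule. The share of all genes lower past it ran in these settings from 1.61%, with no filter on dim probes, to 4.59%, with the 2-fold rule. The count was 2 (Ccna2 and Ccnb1) without a floor, beside 2.53% of all genes. It was 7 with a Z score within bins of signal, beside 3.62% of all genes. With a robust Z score it was 9, and 7.16% of all genes were also past the lower threshold. Ccna2 and Ccnb1 were past it under all 12 alternatives, Ccnb2 under all but the one without a floor, and Cdkn3 under all but those without a floor, with the median of probes or with a Z score within bins of signal. Cdk1 was past it under normexp, the deposited values, the filter on both arrays, the 2-fold rule and both other Z scores. The count of 0 members higher was 1 with normexp, 1 with no filter on dim probes, 1 without a floor and 1 with a Z score within bins of signal, and 2 with a robust Z score. These were Cdk20, joined by Cdkn1c in the last, and Cdk14 without a floor. Shares of all genes higher past the threshold were 3.63%, 3.66%, 4.07%, 3.17% and 8.54% in these settings, in the same order. The median log2 ratio of members lay between -0.25, with no filter on dim probes, and -0.10. In that setting the median of all genes was -0.47, since the floors of the 2 arrays differ. Members lower numbered 18 of 32 with spike-in scaling, 19 with the deposited values and 19 with the median of probes. The median log2 ratio of all genes was -0.006, -0.03 and -0.04 in these settings. Their share of all genes lower is not given here. Under every scaling 7 cyclins were lower and Ccng2 higher, with Ccna1 also detected and higher in the deposited values. No member past the threshold changed sign, and of 205 other values of 23 members 8 had the other sign, those of Cdk12, Cdk14, Cdk17, Cdkn1b and Cdkn2c. The CCAAT count was 11 of 28 members (39.3%, all genes 32.7%) in the shorter window, and the CHR and E2F counts stayed at 5 (17.9%, all genes 14.4%) and 3. Causes were not tested. No paired analysis was possible because each group has 1 sample.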

Other observations

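Probes of 1 member that overlap on the genome did not always give the same ratio. The pair of Cdkn2c probes that starts at 109333757 and 109333779 shares 40 bases and gave log2 ratios of 0.31 and -0.07, a difference of 0.39. By contrast, the pair of Cdk4 probes that shares 53 bases gave 0.09 and 0.11, and that of Ccnd3, also with 53 shared bases, gave -0.66 and -0.85. Of 17 members with more than 1 probe above background on both arrays, 14 had ratios of 1 sign. Among such probes the widest range of log2 ratios was that of Cdk17, at 1.03 over 4 probes, followed by Cdk19 at 0.96 over 4 probes and Ccnb1 at 0.77 over 3 probes.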
